A study of Bos taurus with 8 samples.

Results

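The genes described here are 10 that handle iron and heme, namely CYBRD1, SLC11A2, SLC40A1, HEPH, TFRC, FTH1, FTL, SLC48A1, HMOX1 and HBA. They were chosen by name and function, and all 10 were found among the 17932 genes of the deposited jejunal RNA-seq table. Jejunal tissue was taken on day 90 from Holstein bull calves of 2 groups of 7. The DCLI calves were fed 1 g/d of dead cells of Lactobacillus ingluviei CR37, named Limosilactobacillus ingluviei C37 in the study, a postbiotic (killed bacteria given as a feed supplement), and the CON calves were not. Both groups received milk replacer, had starter feed from day 33 and were weaned by day 89, so that the tissue represents newly weaned calves. From each group 4 calves were sampled at random, with 1 library per calf, named here DCLI1 to DCLI4 and CON1 to CON4.

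Dietary iron is absorbed by the enterocytes of the small intestine. Ferric iron is reduced at the brush border, ferrous iron is carried into the cell, and it is then either stored in ferritin or released on the blood side, where it is oxidised again and bound by transferrin. Iron in excess of what is exported is lost with the ferritin of shed enterocytes. Heme is broken down inside cells by heme oxygenase, which frees its iron. The messenger RNAs of several of these proteins carry iron-responsive elements, so that their amount or translation follows cellular iron, and enterocyte iron uptake genes are also under the control of hypoxia-inducible factors.

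Values are TPM (a share of the transcripts of a library, corrected for transcript length and scaled to the same total in all libraries), so that levels of different genes can be compared. A TPM of 1 or more was found for 12872 to 13247 genes in DCLI libraries and for 12825 to 13552 genes in CON libraries. A TPM keeps no read count, so that no counting error is given, and the error given is the spread between calves. In whole tissue, fewer cells of a type and less RNA per cell cannot be told apart. The library CON4 stood apart from the rest. The 10 enterocyte markers summed to 7267 to 13565 TPM in DCLI, against 6000 to 9255 TPM in CON1 to CON3 and 894 TPM in CON4. The 10 B cell markers summed to 21.0 to 41.5 TPM in DCLI, against 19.9 to 39.9 TPM in CON1 to CON3 and 3941 TPM in CON4. A sample label names liver as the origin of the RNA. Of the 5 liver markers, ALB, AHSG and FGB reached at most 1.07, 0.75 and 0.21 TPM in any library. APOH was at 0.23 to 47.6 TPM, highest in DCLI4, and TTR at 0.28 to 53.8 TPM, highest in CON4. The brush border gene VIL1 had at least 117 TPM in every library. Markers of position along the gut also varied. Markers of the proximal small intestine summed to 250 to 12735 TPM in DCLI and to 0.19 to 179 TPM in CON. Markers of the distal part summed to 349, 612 and 562 TPM in DCLI1, DCLI2 and DCLI4, to 26548 TPM in DCLI3, against 27126 to 70478 TPM in CON1 to CON3 and 1169.9 TPM in CON4. A single gene carried each of these sums where it was high, FABP1 with 12277 TPM of the proximal sum in DCLI1, and FABP6 with 25603 TPM of the distal sum in DCLI3 and 26023 TPM in CON2. The other genes of the lists differed as well. Of 7 tested distal genes 5 were lower in DCLI. Besides FABP6 these were SLC10A2, SLC51A, SLC51B and NR1H4, with log2 fold changes of -3.155, -0.61, -1.10 and -1.11. Without CON4 they were -3.79, -1.78, -2.15 and -1.52 in that order. The 2 that were higher, CUBN and AMN, had log2 fold changes of 1.22 and 0.90, or 0.53 and -0.06 without CON4. All 4 tested proximal genes were higher, GATA4 by 3.26 and LCT by 6.41, or 2.43 and 5.92 without CON4. The part of these differences in the results below was not tested, and the main results are also given without CON4.

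Of the 10 genes, 8 had a higher mean level on the log2(TPM + 1) scale in DCLI and 2, SLC48A1 and HBA, a lower one. The median log2 fold change of the 10 was 0.36 with all libraries and 0.24 without CON4, beside medians of -0.06 and 0.01 over the 13228 genes tested. By limma, 0 of the 10 reached an adjusted p under 0.05, as was the case for 0.0% of all genes tested. At an unadjusted p under 0.05 by limma 1 of the 10, SLC40A1, was higher in DCLI, beside 4.09% of all genes, and 0 were lower, beside 2.99%. The groups did not overlap for 1 of the 10, HBA, which was lower in all DCLI calves than in any CON calf, as were 3.11% of all genes. None of the 10 was higher in all DCLI calves than in any CON calf, beside 2.28% of all genes. In exact permutation tests over the calves, p was 0.0286 for HBA, 0.0571 for SLC40A1 and for SLC48A1, and 0.0857 to 0.857 for the other 7 genes, not adjusted for the 10 tests.

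**Figure D1:**
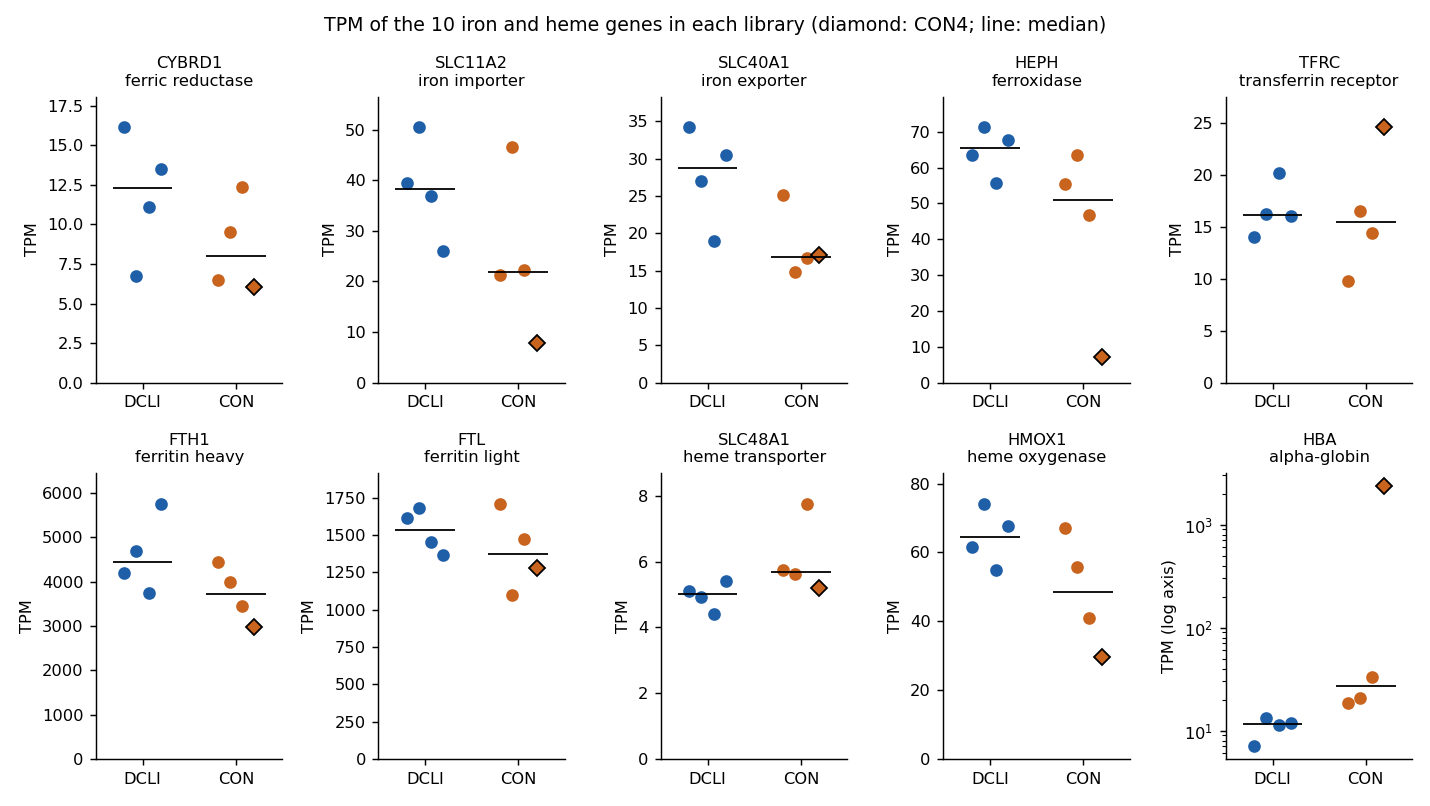
TPM of the 10 iron and heme genes in the 4 DCLI and 4 CON libraries (1 point per calf, line at the group median, diamond for CON4, linear axes from 0 except the log axis of HBA). CON4 is the lowest of the 8 libraries for 5 of the genes and the highest for TFRC and HBA, where HBA reaches 2367 TPM.

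The most abundant of the genes were those of ferritin, the hollow protein shell in which cells store iron. In DCLI the order by mean TPM was FTH1, FTL, HEPH together with HMOX1, SLC11A2, SLC40A1, TFRC, CYBRD1, HBA and SLC48A1. Neighbours in this order overlapped between calves from SLC11A2 down to HBA, while FTH1, FTL, the pair of HEPH and HMOX1, and SLC48A1 were each separated from the next. In CON the order was the same apart from HMOX1, at 48.4 TPM above HEPH at 43.2 TPM, and HBA, which CON4 placed above all but ferritin. Without CON4, HEPH was at 55.2 TPM and HMOX1 at 54.6 TPM, and HBA at 24.2 TPM was above SLC40A1, TFRC and CYBRD1, which it was below in DCLI. The spread over the 8 libraries was smallest for FTL, whose highest value was 1.56 times its lowest, followed by SLC48A1 at 1.76 times and FTH1 at 1.93 times. It was widest for SLC11A2 at 6.40 times, HEPH at 10.1 times and HBA at 334 times, and without CON4 these came to 2.38, 1.52 and 4.71 times.

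CYBRD1 encodes duodenal cytochrome b, a ferric reductase of the brush border that supplies ferrous iron for uptake. Its TPM was 16.2, 6.76, 11.1 and 13.5 in DCLI1 to DCLI4, against 6.48, 9.52, 12.4 and 6.02 in CON1 to CON4. The groups overlapped over most of their range, since DCLI2 was below CON2 and CON3. The mean was 11.9 ± 3.99 TPM in DCLI and 8.598 ± 2.96 TPM in CON (SD, n = 4 each). The log2 fold change was 0.42 (standard error, SE, 0.31, adjusted p = 0.758 by limma), and 0.28 without CON4. Of its 2 transcripts the second in the table made up 77.6% to 92.5% of the TPM in DCLI and 79.1% to 91.4% in CON.

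SLC11A2 encodes the divalent metal transporter DMT1, which carries ferrous iron with protons across the brush border and out of endosomes. Its TPM was 39.5, 50.5, 36.9 and 26.1 in DCLI1 to DCLI4, against 21.2, 46.6, 22.3 and 7.88 in CON1 to CON4. Of the CON calves only CON2 was above the lowest DCLI calf. On average SLC11A2 had 38.2 ± 10.02 TPM in DCLI and 24.5 ± 16.1 TPM in CON (SD, n = 4 each). The log2 fold change of 0.82 (SE 0.46, adjusted p = 0.730 by limma) was 0.39 without CON4 and 1.1998 without CON2. A 2-sided exact permutation test over the calves gave p = 0.2 for this difference, and p = 0.0286, the smallest that 4 calves against 3 allow, without CON2. Over all alternatives the fold change lay between 0.04 and 1.1998, and the adjusted p was 0.367 or higher. SLC11A2 had 7 transcripts in the table. The first took 41.0% to 57.8% of its TPM in DCLI and 43.4% to 58.8% in CON, and the third took 21.3% to 42.5% in DCLI and 14.2% to 42.5% in CON.

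SLC40A1 encodes ferroportin, the only known exporter of iron from animal cells, found on the blood side of enterocytes and on macrophages. Its TPM was 34.2, 27.0, 19.0 and 30.5 in DCLI1 to DCLI4, against 25.1, 14.8, 16.6 and 17.2 in CON1 to CON4. All DCLI calves were above CON2, CON3 and CON4, and only DCLI3 was below CON1. The mean of SLC40A1 was 27.7 ± 6.49 TPM in DCLI and 18.4 ± 4.55 TPM in CON (SD, n = 4 each). Its log2 fold change was 0.56 (SE 0.24, adjusted p = 0.696 by limma), with p = 0.0571 in the exact permutation test, which is above the 0.0286 that 4 calves against 4 can reach. It was 0.53 (SE 0.25) when CON4 was left out, and the unadjusted p by limma was 0.0482 with all libraries and 0.0615 without CON4. Across the alternatives it stayed between 0.45 and 0.73, with an unadjusted p under 0.05 by limma in 10 of 20. Those 10 include the alternatives that changed only the rows of TFRC or of HBA, which repeat the main fit for SLC40A1. Macrophage markers summed to 333 to 1288 TPM in DCLI and to 599 to 1261 TPM in CON, and CSF1R, a defining one, had 13.9 to 34.9 TPM in DCLI and 14.1 to 53.5 TPM in CON. Their part in the values of SLC40A1 was not tested. The gene had 2 transcripts, and the shares of the second were 73.4%, 45.9%, 48.2% and 77.2% in DCLI1 to DCLI4, against 82.1%, 59.4%, 40.0% and 50.9% in CON1 to CON4. Their range in DCLI thus lay inside that in CON.

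HEPH encodes hephaestin, the membrane-bound copper ferroxidase that oxidises iron as it leaves the enterocyte through ferroportin. Its TPM was 63.4, 71.2, 55.7 and 67.8 in DCLI1 to DCLI4, against 55.3, 63.6, 46.7 and 7.02 in CON1 to CON4. CON4 was far below all other calves, at 0.11 times their median, and among the remaining CON calves only CON2 reached the DCLI range. The mean of HEPH was 64.5 ± 6.70 TPM in DCLI and 43.2 ± 25.1 TPM in CON (SD, n = 4 each), or 55.2 ± 8.44 TPM in the 3 other CON calves. The log2 fold change of 0.93 (SE 0.60, adjusted p = 0.741 by limma) was 0.23 (SE 0.16) without CON4. The exact permutation test gave p = 0.0857 with all calves and p = 0.171 without CON4. Leaving out CON2, the only CON calf in the DCLI range, removed the overlap. The p of 0.0286 without CON2, the smallest possible, follows from that and is no separate evidence of a difference. The seventh of 7 transcripts carried 73.2% to 82.6% of HEPH in DCLI and 71.9% to 74.1% in CON1 to CON3, but 49.9% in CON4. Within a library the ratio of HEPH to SLC40A1 was 1.85, 2.64, 2.93 and 2.23 in DCLI1 to DCLI4, against 2.203, 4.29, 2.81 and 0.41 in CON1 to CON4. The RNA of HEPH was therefore more abundant than that of SLC40A1 in every library but CON4.

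**Figure D2:**
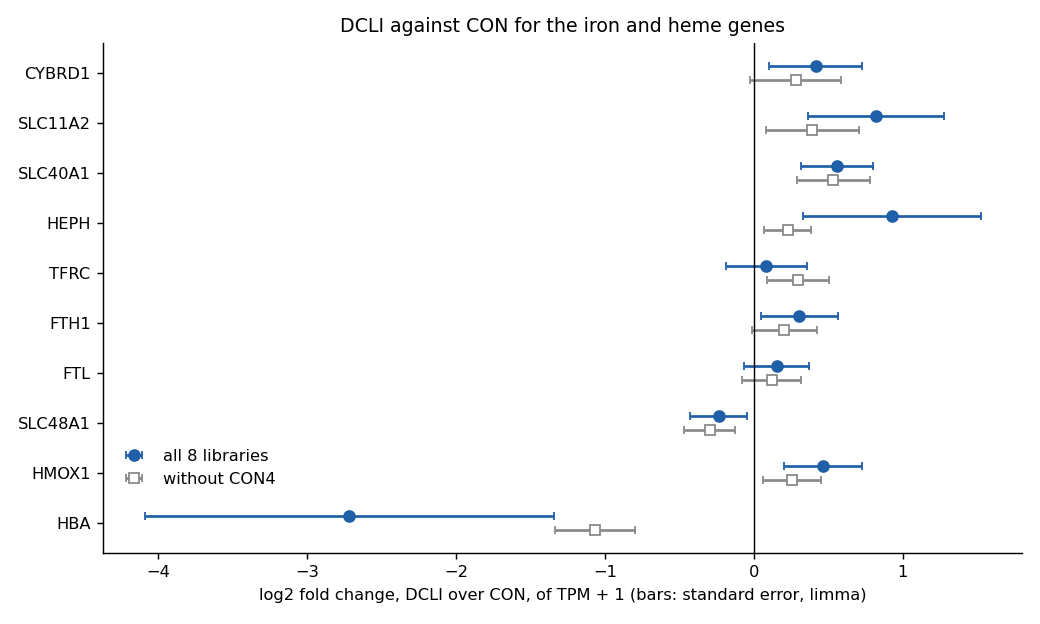
Log2 fold change of TPM + 1, DCLI over CON, for each iron and heme gene by limma with all 8 libraries (circles) and without CON4 (squares), with bars of 1 standard error. With and without CON4, HEPH is at 0.93 and 0.23, HBA at -2.72 and -1.07, and SLC40A1 at 0.56 and 0.53.

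TFRC encodes the transferrin receptor, by which cells take up iron from the blood, and is most abundant in dividing cells. Its TPM was 14.1, 16.3, 20.1 and 16.0 in DCLI1 to DCLI4, against 9.76, 16.5, 14.4 and 24.6 in CON1 to CON4. The DCLI values lay inside the range of CON, of which CON1 was the lowest and CON4 the highest. The mean of TFRC was 16.6 ± 2.55 TPM in DCLI and 16.3 ± 6.19 TPM in CON (SD, n = 4 each), with a log2 fold change of 0.08 (SE 0.27, adjusted p = 0.932 by limma). The value was 0.30 without CON4, -0.12 without CON1 and -0.01 without DCLI3, so that no direction was kept. Markers of cycling cells summed to 105 to 263 TPM in DCLI, against 95.3 to 196 TPM in CON1 to CON3 and 1435 TPM in CON4, and their part in the values of TFRC was not tested. The table holds 6 rows for TFRC, of which 4 have identical values in every library and are 0 in CON1 and CON4. With these rows counted once, TFRC had 10.7, 6.93, 13.7 and 13.02 TPM in DCLI1 to DCLI4, against 9.76, 10.7, 6.55 and 24.6 TPM in CON1 to CON4, and the log2 fold change was -0.09 (SE 0.38).

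**Figure D3:**
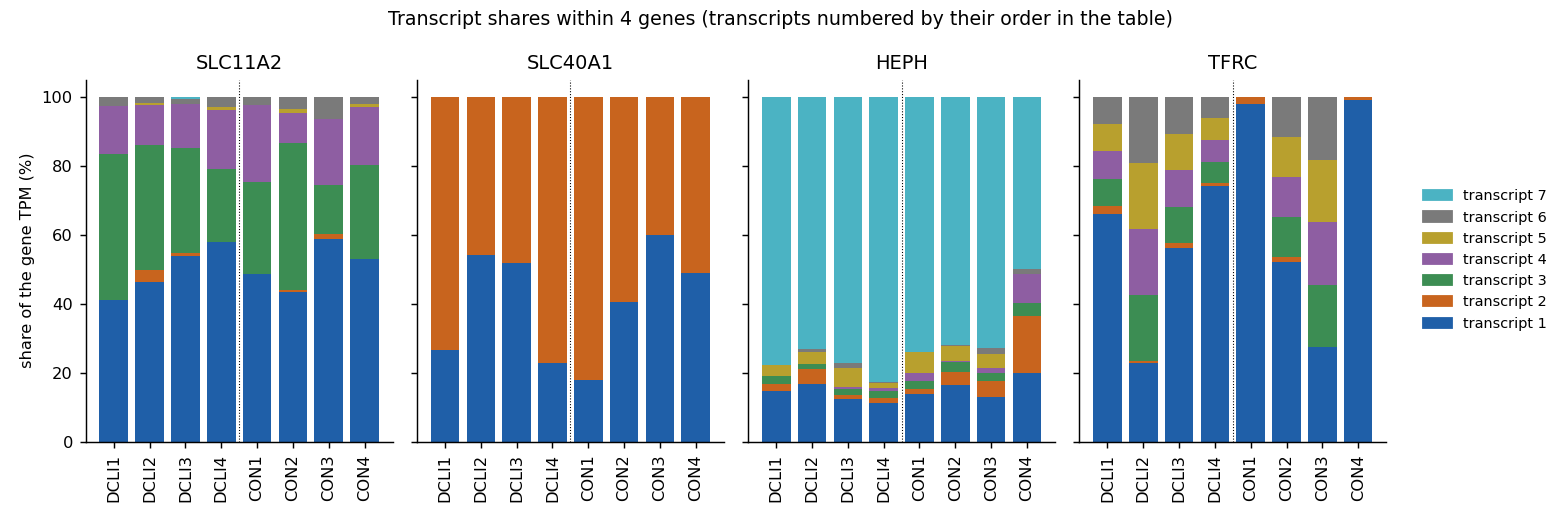
Share of each gene's TPM (%) taken by each of its transcripts in the 4 DCLI libraries, left, and the 4 CON libraries, right, with transcripts numbered by their order in the table. Transcript 7 of HEPH takes 49.9% in CON4 and 71.9% or more in all other libraries, and transcripts 3 to 6 of TFRC, which hold identical values, are at 0 in CON1 and CON4.

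FTH1 and FTL encode the heavy chain of ferritin, which oxidises iron for storage, and the light chain, which helps to form the iron core. The TPM of FTH1 was 4204, 4687, 3744 and 5763 in DCLI1 to DCLI4, against 4439.7, 3994, 3447 and 2984 in CON1 to CON4. DCLI4 was the highest and CON4 the lowest, and the other calves of both groups were interspersed. The mean of FTH1 was 4599 ± 866 TPM in DCLI and 3716 ± 635 TPM in CON (SD, n = 4 each), with a log2 fold change of 0.31 (SE 0.26, adjusted p = 0.767 by limma) and 0.21 without CON4. For FTL the values were 1612, 1678, 1455 and 1367 TPM in DCLI1 to DCLI4, against 1709.8, 1096, 1469.8 and 1278 TPM in CON1 to CON4. FTL had means of 1528 ± 143 TPM in DCLI and 1388 ± 263 TPM in CON (SD, n = 4 each) and a log2 fold change of 0.15 (SE 0.22, adjusted p = 0.843 by limma). It was 0.12 without CON4, which was at 0.87 times the median of the other calves. FTH1 ranked between 15 and 29 by abundance among all genes in DCLI and between 25 and 73 in CON. Together the 2 chains took 0.582%, 0.637%, 0.520% and 0.713% of all TPM in DCLI1 to DCLI4, against 0.615%, 0.509%, 0.492% and 0.426% in CON1 to CON4. For this share the exact permutation test gave p = 0.114. The ratio of the heavy to the light chain was 4.22 in DCLI4 and 2.57 to 2.79 in the other DCLI calves, against 3.64 in CON2 and 2.34 to 2.60 in the other CON calves. Each group thus held 1 calf with a ratio above the rest, and the ratio did not separate the groups (exact permutation test, p = 0.486).

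SLC48A1 encodes HRG1, which moves heme out of lysosomes and endosomes into the cytosol, and it was the least abundant of the genes in DCLI. Its TPM was 5.12, 4.93, 4.42 and 5.41 in DCLI1 to DCLI4, against 5.75, 5.63, 7.77 and 5.20 in CON1 to CON4. All DCLI calves were below CON1, CON2 and CON3, and DCLI4 was above CON4. SLC48A1 averaged 4.97 ± 0.416 TPM in DCLI and 6.09 ± 1.15 TPM in CON (SD, n = 4 each). The log2 fold change was -0.24 (SE 0.19, adjusted p = 0.760 by limma), and the exact permutation test gave p = 0.0571. Without CON4 the groups did not overlap, with a log2 fold change of -0.30 (SE 0.17) and p = 0.0286 in the exact permutation test over 35 assignments, the smallest it allows. That p follows from leaving out CON4, the only CON calf in the DCLI range. The share of all genes that did not overlap without CON4 was not computed. The limma test of the same difference had an adjusted p of 0.585.

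HMOX1 encodes the inducible heme oxygenase, which splits heme into iron, carbon monoxide and biliverdin. Its TPM was 61.6, 74.2, 54.8 and 67.6 in DCLI1 to DCLI4, against 67.0, 55.8, 41.1 and 29.6 in CON1 to CON4. CON1 lay within the DCLI values and CON2 just above the lowest of them, while CON3 and CON4 were below all DCLI calves. The mean was 64.5 ± 8.28 TPM in DCLI and 48.4 ± 16.4 TPM in CON (SD, n = 4 each). HMOX1 had a log2 fold change of 0.46 (SE 0.26, adjusted p = 0.730 by limma), or 0.26 without CON4, and the exact permutation test gave p = 0.171.

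HBA encodes the alpha chain of hemoglobin, the oxygen carrier of red blood cells. Its TPM was 7.09, 13.3, 11.4 and 11.9 in DCLI1 to DCLI4, against 18.4, 20.9, 33.4 and 2367 in CON1 to CON4. Every DCLI calf was below every CON calf, and CON4 was 70.8 times the next highest library. HBA ranked between 6832 and 8831 by abundance among all genes in DCLI, against 3576 to 5026 in CON1 to CON3 and 88 in CON4. The mean of HBA was 10.9 ± 2.67 TPM in DCLI (SD, n = 4) and 24.2 ± 8.06 TPM in the CON calves other than CON4 (SD, n = 3), and 610 ± 1171 TPM with CON4 included. The log2 fold change was -2.72 (SE 1.37, adjusted p = 0.716 by limma), and -1.07 (SE 0.27, adjusted p = 0.379 by limma) without CON4. In the 2-sided exact permutation test p was 0.0286 both with CON4 and without it, the smallest the design allows in each case. With all CON calves and any 1 DCLI calf left out, the exact permutation test gave p = 0.114 to 0.2. The groups still did not overlap in these cases. With 3 calves against 4, assignments that place CON4 in the group of 3 can give a larger difference than the observed one. That raises this p, which thus does not show that the difference hangs on a single DCLI calf. Over the 20 alternatives the fold change lay between -3.38 and -1.07 on the log2 scale. HBA was thus lower in DCLI in each, which leaving out a calf could not change, since the groups did not overlap.

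HBB, the partner chain of HBA in adult hemoglobin, was listed at 0.29 TPM in DCLI3, at 0.25 TPM in CON1 and at 0 in the other 6 libraries. SLC4A1, the anion exchanger of the red cell membrane, was at 0.29 TPM in CON4 and at 0 elsewhere. Of 11 erythroid markers 8 were found in the table, none of which passed the filter on low values, and they summed to 1.38 to 2.69 TPM in DCLI and to 1.53 to 2.65 TPM in CON, with 1.90 TPM in CON4. HBG, annotated as a gamma-globin, had 7.69, 11.2, 5.95 and 4.86 TPM in DCLI1 to DCLI4, against 37.8, 9.53, 7.60 and 3.71 TPM in CON1 to CON4, and so was highest in CON1 and lowest in CON4. HBA1, a neighbouring alpha-globin copy, was at 2.04 TPM in DCLI3 and 20.7 TPM in CON4 and at 0 elsewhere. How reads were shared between HBA and HBA1 is uncertain, and with both summed the log2 fold change was -2.66 (SE 1.38). Markers of endothelium summed to 52.9 to 73.7 TPM in DCLI, and to 71.7 to 103 TPM in CON1 to CON3 and 38.6 TPM in CON4. Smooth muscle markers summed to 471 to 1437 TPM in DCLI, and to 1232 to 4171 TPM in CON1 to CON3 and 632 TPM in CON4. The endothelial sum was below CON1 to CON3 in DCLI1 and DCLI4, and the smooth muscle sum in all DCLI calves but DCLI2. The part of these cell types in the values of HBA was not tested.

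**Figure D4:**
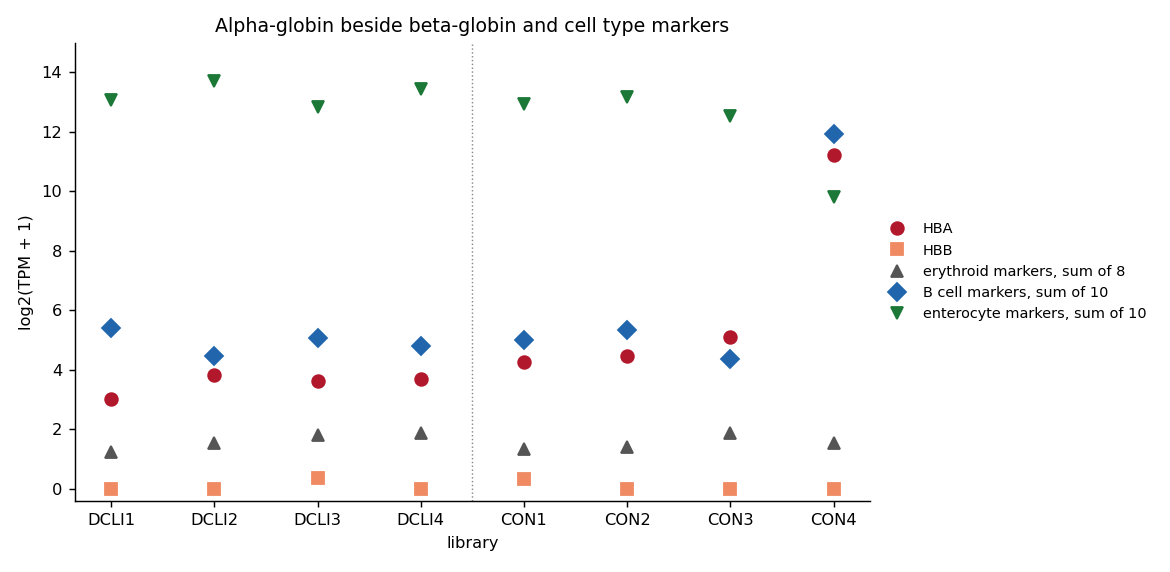
Level as log2(TPM + 1) in each library of HBA, of HBB and of the summed erythroid, B cell and enterocyte markers, with DCLI left of the dotted line and CON right of it. HBA and the B cell markers peak in CON4 at 2367 and 3941 TPM, where the enterocyte markers are lowest at 894 TPM, whereas the erythroid sum stays between 1.38 and 2.69 TPM.

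To set the genes beside the epithelium of the same library, the mean log2(TPM + 1) of the 10 enterocyte markers was subtracted from each gene's log2(TPM + 1). These markers themselves had a higher mean level in DCLI in 10 of 10 cases, with a median log2 fold change of 0.92, or 0.45 without CON4. The subtracted mean level was 1.45 higher in DCLI, or 0.73 without CON4, which MEP1A (log2 fold change 4.27, or 3.79 without CON4) and APOA4 (2.88, or 1.47 without CON4) raised most. On this scale all 10 iron and heme genes had a lower mean in DCLI than in CON. The difference was smallest for HEPH at -0.52, followed by SLC11A2 at -0.62 and SLC40A1 at -0.89, and it was -1.68 for SLC48A1 and -4.16 for HBA. Without CON4 it was still below 0 for all 10, between -0.20 for SLC40A1 and -1.80 for HBA. That count depended on the marker level subtracted. With the median of the 10 markers, which was 1.11 higher in DCLI, or 0.19 without CON4, 10 genes were below 0 with all libraries and 3, FTL, SLC48A1 and HBA, without CON4. With the mean of the 8 markers other than MEP1A and APOA4, 9 were below 0 with all libraries, HEPH being at 0.01, and 6 without CON4. HEPH had the smallest spread of the 10 on this scale in DCLI (SD 0.09, n = 4), with values of -2.35, -2.28, -2.28 and -2.47 in DCLI1 to DCLI4, against -1.55, -2.32, -1.65 and -1.79 in CON1 to CON4. FTH1 (SD 0.10), SLC48A1 (SD 0.11) and HMOX1 (SD 0.11) were similarly even in DCLI. SLC48A1 was at -5.75, -5.88, -5.67 and -5.90 in DCLI1 to DCLI4, against -4.61, -5.60, -4.10 and -2.16 in CON1 to CON4. This is a description without a test, since the subtracted markers differ between the groups.

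The position markers varied within DCLI as well, where the distal sum of DCLI3 was close to the 27126 TPM of CON2. DCLI3 was the lowest of the 4 DCLI calves for 5 of the genes, SLC40A1, HEPH, FTH1, HMOX1 and SLC48A1. DCLI1 and DCLI4 were the lowest for 2 each and DCLI2 for 1. The share of all genes for which DCLI3 was lowest was not computed, and the part of gut position in these values was not tested. Without DCLI3 the log2 difference of SLC40A1 was 0.72 (exact permutation test over 35 assignments, p = 0.0571). It was 0.99 for HEPH, 0.40 for FTH1, 0.54 for HMOX1 and -0.19 for SLC48A1. Leaving out the lowest DCLI calf must raise each of these values.

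Other genes of iron and heme pathways were taken as 8 lists of 106 genes in all, of which 99 were found and 87 tested. By limma 0 of the 87 had an adjusted p under 0.05. At an unadjusted p under 0.05, 7 were higher in DCLI and 1 was lower, while 50 of the 87 had a higher and 37 a lower mean level, with a median log2 fold change of 0.10. Over all genes tested 5752 had a higher and 7476 a lower mean level, and 4.09% were higher and 2.99% lower at that p. Every DCLI calf was above every CON calf for 5 of the 87, beside 2.28% of all genes. Every DCLI calf was below every CON calf for 0 of the 87, beside 3.11%.

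The list of ferric reduction and iron import had 11 genes tested, all with a higher mean level in DCLI and 3 with an unadjusted p under 0.05. Its median log2 fold change was 0.59, but 0.30 without CON4 and 0.26 with array weights. The 10 enterocyte markers were also all higher in DCLI, 4 of them at that p, with a median of 0.92, or 0.45 without CON4. The part of enterocyte content in the pathway lists was not tested. STEAP2, a metalloreductase of ferric and cupric ions, had 23.4, 24.3, 14.6 and 22.9 TPM in DCLI1 to DCLI4, against 5.09, 15.7, 6.73 and 1.3 TPM in CON1 to CON4, a log2 fold change of 1.75 (SE 0.52). STEAP1, of the same family, had 5.85, 2.28, 1.80 and 2.81 TPM in DCLI1 to DCLI4, against 1.11, 1.14, 1.02 and 0.87 TPM in CON1 to CON4. SLC39A14, the transporter ZIP14 of zinc, manganese and iron that is not bound to transferrin, had 82.0, 106, 61.8 and 122 TPM in DCLI, against 55.1, 51.3, 36.8 and 11.1 TPM in CON. For STEAP1 and SLC39A14, 2 of the 11, every DCLI calf was above every CON calf, beside 2.28% of all genes. STEAP1 was near the filter of 1 TPM in all CON calves. Their log2 fold changes were 0.95 (SE 0.28) and 1.42 (SE 0.48), and all 3 genes had an adjusted p of 0.692 by limma. MCOLN1, a lysosomal cation channel that can release iron, had a log2 fold change of 0.45 (SE 0.22) and overlapped between the groups. Without CON4 the values were 1.25 for STEAP2, 0.91 for STEAP1, 0.92 for SLC39A14 and 0.30 for MCOLN1.

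Of the 14 tested genes of heme transport and breakdown, 11 had a higher mean level in DCLI and 3 a lower one, with a median log2 fold change of 0.51, or 0.20 without CON4 and 0.10 with array weights. At an unadjusted p under 0.05 by limma 4 were higher and 1 was lower. SLC46A1, the proton-coupled folate transporter that was first described as a heme carrier, had 23.8, 30.6, 14.9 and 18.2 TPM in DCLI1 to DCLI4, against 5.04, 8.39, 4.08 and 3.76 TPM in CON1 to CON4. The groups did not overlap, with a value of 1.86 (SE 0.30) on the log2 scale, or 1.74 without CON4. BLVRA, which reduces the biliverdin made by heme oxygenase to bilirubin, had 45.0, 36.4, 23.7 and 25.1 TPM in DCLI1 to DCLI4, against 23.4, 22.5, 7.51 and 7.26 TPM in CON1 to CON4. It was also higher in every DCLI calf, by 1.19 on the log2 scale (SE 0.43, adjusted p = 0.692 by limma). HMOX2, the constitutive heme oxygenase, had a log2 fold change of 0.57 (SE 0.24), near the 0.46 of HMOX1. PGRMC2, a heme-binding membrane protein, had 0.60 (SE 0.25). PGRMC1, of the same family, had 119 to 147 TPM in DCLI, against 29.3 to 117 TPM in CON. Its log2 fold change was 0.81 (SE 0.39), or 0.37 without CON4. Every DCLI calf was thus above every CON calf for 3 of the 14, SLC46A1, BLVRA and PGRMC1, beside 2.28% of all genes. CD163, the macrophage receptor for hemoglobin bound to haptoglobin, was the gene lower at that p, with 1.5, 1.03, 4.70 and 1.75 TPM in DCLI1 to DCLI4, against 6.10, 2.50, 4.92 and 12.1 TPM in CON1 to CON4 (log2 fold change -1.15, SE 0.45, adjusted p = 0.696 by limma). Its groups overlapped through DCLI3 and CON2. Without CON4 the values were 0.93 for BLVRA, 0.40 for HMOX2, 0.64 for PGRMC2 and -0.82 for CD163.

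**Figure D5:**
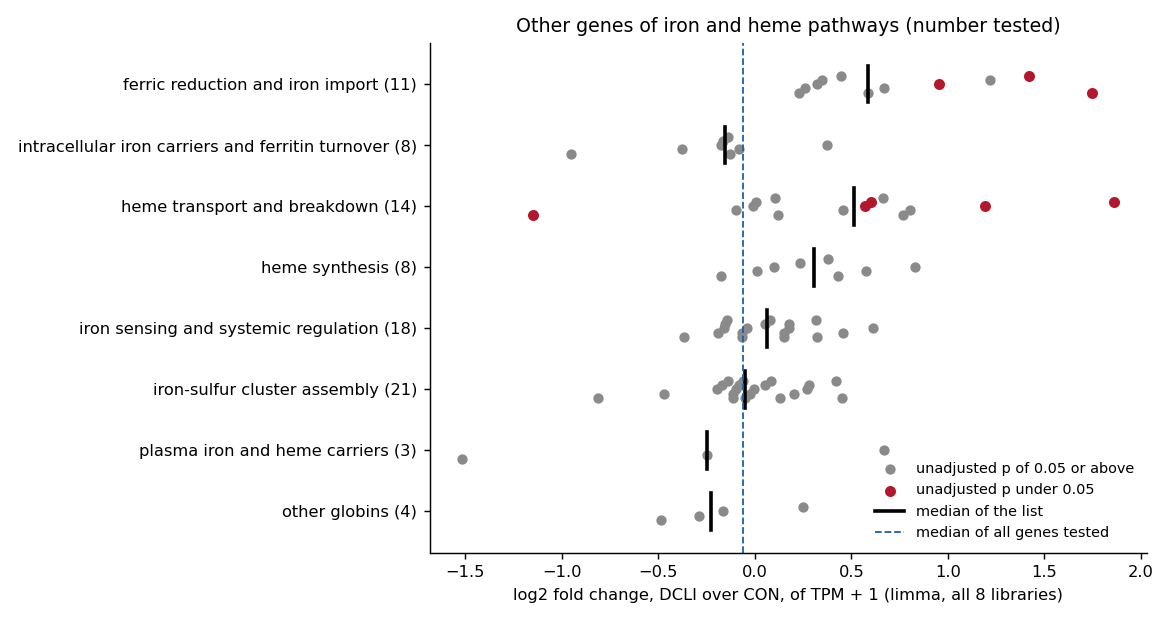
Log2 fold change of TPM + 1, DCLI over CON, by limma for each tested gene of the 8 pathway lists (1 point per gene, red where the unadjusted p was under 0.05, black bar at the median of the list, dashed line at the median of all genes tested, -0.06). All 11 points of the import list lie above 0, and the median of the iron-sulfur list, -0.05, lies close to that of all genes.

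Heme synthesis had 7 of 8 tested genes with a higher mean level in DCLI and a median log2 fold change of 0.30, or 0.18 without CON4, and 0 with an unadjusted p under 0.05. ALAS1, the first and rate-limiting enzyme outside the red cell lineage, had 57.0, 58.4, 55.3 and 76.8 TPM in DCLI1 to DCLI4, against 58.1, 48.3, 45.9 and 32.3 TPM in CON1 to CON4. CON1 thus lay within the DCLI values. ALAS1 had a log2 fold change of 0.43 (SE 0.22), and for the later enzymes ALAD and CPOX the values were 0.83 (SE 0.50) and 0.57 (SE 0.29). Without CON4 these were 0.27 for ALAS1, 0.32 for ALAD and 0.52 for CPOX.

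Genes of intracellular iron carriers and ferritin turnover had a higher mean level in DCLI in 1 of 8 cases, with a median of -0.15, or -0.11 without CON4, and 0 with an unadjusted p under 0.05. The exception was NCOA4, the receptor that delivers ferritin to lysosomes for the release of its iron, with 59.0, 43.0, 38.6 and 44.9 TPM in DCLI1 to DCLI4, against 34.8, 36.4, 30.2 and 39.5 TPM in CON1 to CON4 (log2 fold change 0.38, SE 0.19). Only CON4 reached the range of DCLI. TIMD4, a phagocyte receptor that in mouse binds heavy-chain ferritin, had 25.2 to 54.5 TPM in DCLI, against 23.3 to 63.6 TPM in CON1 to CON3 and 380 TPM in CON4, and its log2 fold change was -0.95, or -0.12 without CON4. SCARA5, a receptor for light-chain ferritin, and PCBP1, an iron chaperone, had log2 fold changes of -0.38 (SE 0.32) and -0.16 (SE 0.18).

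The lists of iron sensing and of iron-sulfur cluster assembly were spread on both sides of 0. Of 18 tested sensing and regulation genes 10 had a higher and 8 a lower mean level (median 0.07, or -0.0005 without CON4), and 0 had an unadjusted p under 0.05. BMPR2, a receptor of bone morphogenetic proteins, had a log2 fold change of 0.46 (SE 0.31), EGLN3, a prolyl hydroxylase that acts on hypoxia-inducible factors, had 0.61 (SE 0.48), and SMAD4 had -0.19 (SE 0.16). Without CON4 they were 0.19 for BMPR2, 0.09 for EGLN3 and -0.20 for SMAD4. BMP6, the ligand that adjusts hepcidin to iron, was at 0.63 to 1.47 TPM in DCLI and at 0.80 to 2.39 TPM in CON. Of 21 iron-sulfur genes 8 had a higher and 13 a lower mean level (median -0.05, or 0.04 without CON4), again with 0 at an unadjusted p under 0.05. ISCA1 and FDX1 had 0.45 (SE 0.24) and 0.42 (SE 0.34), and FDX2 had -0.47 (SE 0.28), and without CON4 the values were 0.25 for ISCA1, 0.06 for FDX1 and -0.22 for FDX2.

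Of 6 plasma iron and heme carriers 3 passed the filter on low values, and 0 had an unadjusted p under 0.05. Their median log2 fold change was -0.25, or 0.04 without CON4. LTF, the iron-binding protein lactoferrin of neutrophil granules and secretions, had 0.28, 3.59, 12.1 and 4.87 TPM in DCLI1 to DCLI4, against 29.4, 12.6, 3.62 and 14.8 TPM in CON1 to CON4 (log2 fold change -1.51, SE 0.75). HP, haptoglobin, had 51.7 TPM in DCLI4 and 4.15 to 6.74 TPM in the other DCLI calves, against 2.08 to 11.6 TPM in CON. CP, ceruloplasmin, the soluble relative of hephaestin, overlapped between the groups (log2 fold change -0.25, SE 0.42) and had 0.04 without CON4. Of the other globins 4 of 11 were tested, with 1 higher and 3 lower and a median of -0.23, or -0.65 without CON4. HBQ1, a theta-type globin, had a log2 fold change of 0.25 (SE 0.32), CYGB, cytoglobin, had -0.29 (SE 0.52), and MB, the oxygen store of muscle, had -0.16 (SE 0.43), or 0.39, -0.83 and -0.46 in that order without CON4.

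For each iron and heme gene, a search over many genes picked those whose levels were nearest to it from calf to calf. Pearson's r is given over 7 libraries without CON4, which alone can set it. It is a description with no test, and the libraries also differ from each other in diet group and in position markers. The values are the highest of a search, and with so few libraries a search over many genes yields high values by itself. How high they would be by chance was not computed, so the genes named are not shown to follow the iron and heme genes. The highest values were 0.996 for NLRP6 with HMOX1, 0.989 for ABHD5 with SLC11A2, 0.988 for MTUS1 with HBA, 0.986 for KIAA0319L with HEPH, 0.983 for NHEJ1 with FTH1 and 0.981 for PTGES with SLC48A1. They were 0.975 for LOC615792 with TFRC, 0.973 for LOC112441507 with FTL, 0.963 for GMPS with CYBRD1 and 0.956 for SERINC2 with SLC40A1. NDUFA7 was among the 3 genes nearest to SLC40A1 both with 8 libraries (r = 0.957) and without CON4 (r = 0.952), and MGAT2 was so for SLC11A2 (r = 0.988 and 0.972). The same held for PHYHD1 with FTH1, CITED4 with FTL and LOC615792 with TFRC, and for none of the genes nearest to CYBRD1, HEPH, HMOX1, SLC48A1 and HBA. For HEPH the nearest gene over 8 libraries was CLCN2 (r = 0.999), with 79.0 to 106 TPM in DCLI, against 72.9 to 91.2 TPM in CON1 to CON3 and 10.6 TPM in CON4.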

How the data were processed

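RNA-seq was performed on poly(A)-selected RNA of jejunal tissue from 4 DCLI and 4 CON calves. According to the methods of the study, the authors used SOAPnuke to filter the reads, HISAT2 to align them to ARS-UCD1.2, RSEM for quantification and DESeq2 to test counts. The deposited values are TPM per transcript and library, made by the authors, with replicates not pooled. The authors' table also holds an estimated count for 76 of 50681 rows, none of a gene described here, which did not follow the TPM of its own row across the libraries (median r = -0.17) and was not used. The test of the study on counts was therefore not repeated.

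TPM was summed to 17932 genes by gene ID, of which 17696 matched RefSeq genes of ARS-UCD2.0, used for names only. The 13228 genes that reached a TPM of 1 in 4 or more libraries were tested with limma (lmFit, eBayes with trend) on log2(TPM + 1), with Benjamini-Hochberg adjustment over all genes tested and a threshold of 0.05. Fold changes on this scale understate the change of genes with low values. Each of the 10 genes was also tested with a 2-sided exact permutation test of mean log2(TPM + 1) over 70 assignments of calves (35 with a calf left out), not adjusted. Since TPM values hold no read counts, counting error was not computed. Each library is 1 calf, and the labels give no sequencing batch. The limma step was tested on simulated data.

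The genes and lists were chosen with earlier results of these data known, from function and not from their values. Named genes are the 10 members, up to 4 genes per pathway list with the smallest unadjusted p among those tested, the 3 genes with the highest Pearson's r with each member, and the first 3 of each marker list. HMOX2, HBA1, ABCG2, HSCB, PGRMC1 and further genes of the marker lists were added after their values were seen. The values of 1 further gene named by this rule are not reported here. Alternatives changed the pseudocount, filter, scaling, variance model, library weights and pairing, and left out each library. Fits were run in R (version 4.3.3) with the package limma (version 3.58.1). Permutation tests, summaries and plots were made in Python (version 3.11.15), for which the packages were scipy (version 1.17.1), pandas (version 2.3.3), numpy (version 2.4.6) and matplotlib (version 3.10.9).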

Additional observations from a re-analysis of the deposited data

Results flagged for a closer look

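In each group of 4 calves, a gene was looked at again where, on the log2(TPM + 1) scale, the gap between its highest or lowest calf and the nearest other was larger, as a share of the group's range, than Dixon's 95% critical value. Over the 20 groups of the 10 genes this was met by 2, both through CON4. Chance alone gives about 1 in 20 for independent groups, but these groups share the same calves. CON4 also stood apart from the other calves in its B cell and enterocyte marker sums. The share of all genes past the critical value was not computed, so the count of 2 is no result about the 10 genes. HEPH had 7.02 TPM in CON4, and the gap to the next CON calf was 0.855 of the range on that scale, though 0.702 in TPM, where it would not be past the critical value. HBA had 2367 TPM in CON4, with a gap of 0.881 of the range on that scale and 0.994 in TPM. No DCLI calf met the criterion.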

How the results depend on the processing

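Of 200 fold changes of the 10 genes under alternatives, 197 kept their direction and their side of the adjusted threshold by limma and 3 turned, all of TFRC, at -0.0067 without DCLI3, -0.12 without CON1 and -0.0866 with its identical rows counted once, and leaving out a calf gave -0.12 to 0.30. The last of these, the sum of HBA and HBA1 and the other marker levels below were chosen after seeing the data. Not all 200 are separate checks. A change of filter or of variance trend, or a replicate block, leaves the fold change as it was. Counting the TFRC rows once, or summing HBA with HBA1, changes that gene only. Relative to the enterocyte markers, HEPH turned to 0.0121 with the markers MEP1A and APOA4 left out. Of 160 list medians 158 moved by less than the spread, and those of iron import and of heme transport fell with array weights. The number of genes at an adjusted p under 0.05 by limma was 0, and 0 to 9 with a calf left out (9 without CON2, 1 without DCLI1). At an unadjusted p under 0.05 it was 937 (541 higher, 396 lower in DCLI), and 438 (without DCLI1) to 1345 (without CON2) with a calf left out. This split was 462 higher and 909 lower with array weights, 555 and 769 without CON4, and 415 and 524 without CON1. The number of the 10 genes at a p under 0.05 in the exact permutation test was 1. It was 0 with any 1 DCLI calf left out, 2 without CON4 and 3 without CON2, namely SLC11A2, HEPH and HBA. For SLC11A2 and HEPH, CON2 was the only CON calf in the DCLI range, so its removal fixed that p. The share of all genes at such a p with a calf left out was not computed, so these counts are no result about the 10 genes. For HBA, the higher p with a DCLI calf left out follows from the place of CON4 in the assignments. The cause of the other changes was not tested. Calves that share a number in their titles did not deviate together (r between -0.20 and 0.05, against -0.41 to 0.37 for other pairs). The numbers thus gave no sign of a pairing, which so few pairs cannot exclude. With the replicate number as a block 845 genes had an unadjusted p under 0.05 by limma and 0 an adjusted one. In that fit SLC11A2 had an SE of 0.29 and an unadjusted p of 0.0295 (adjusted p = 0.761). The number of calves limits all values, and a TPM keeps no read count, so that counting error was not computed.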

Other observations

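A few pathway genes differed more between the groups once CON4 was set aside, and they are singled out after their values were seen. Over all genes tested, 396 were lower in DCLI at an unadjusted p under 0.05 by limma with all libraries and 769 without CON4. For genes higher in DCLI these counts were 541 and 555. A stronger difference without CON4 is thus not particular to the genes named here. The share of all genes that did not overlap without CON4 was not computed. ABCG2, which exports heme and other substrates across cell membranes, had 79.0, 90.6, 91.6 and 78.6 TPM in DCLI1 to DCLI4, against 182, 107, 184 and 14.1 TPM in CON1 to CON4. Every DCLI calf was below CON1, CON2 and CON3, and CON4 was below all DCLI calves. Its log2 fold change by limma was -0.01 with all libraries and -0.85 without CON4. FDXR, the reductase that feeds electrons to the ferredoxins of iron-sulfur cluster assembly, had 10.8, 29.4, 30.4 and 21.2 TPM in DCLI1 to DCLI4, against 57.3, 32.9, 73.8 and 14.96 TPM in CON1 to CON4. Its log2 fold change was -0.81 (standard error 0.51), and -1.24 without CON4. CYGB, cytoglobin, had -0.29 and, without CON4, -0.83. Among genes of the same process as FDXR, HSCB, a cochaperone that hands over clusters, had 18.9 to 21.5 TPM in DCLI, against 11.7 to 17.7 TPM in CON1 to CON3 and 27.1 TPM in CON4.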
